A study of Mus musculus with 6 samples.

Results

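The genes described here are 10 members of the Notch pathway in endothelial cells (ECs): the receptors *Notch1* and *Notch4*, the ligands *Dll4*, *Jag1* and *Jag2*, the nuclear effector *Rbpj*, and the targets *Hes1*, *Hey1*, *Hey2* and *Nrarp*. They were chosen by symbol, each symbol matched 1 row of the deposited gene count table, and all 10 of the 56748 genes in that table were therefore found. All 10 also passed the filter on low counts that left 13107 genes for testing. RNA-Seq was performed on ECs sorted from spinal cords at P16, with 3 mice per genotype and 1 library per mouse. Control mice carried the floxed *Tardbp* gene (Tardbpflox), in which *loxP* sites flank exon 3 of the gene for TDP-43. TDP-43iΔEC mice carried the same allele together with *Cdh5(PAC)-CreERT2*, a tamoxifen-inducible Cre expressed from an endothelial promoter. Both groups received tamoxifen (1 mg/mL) from P5 to P7, and the crossed mice were on a C57BL/6 background. Because control mice lack Cre, an effect of Cre activity itself and an effect of *Tardbp* deletion cannot be told apart.

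Notch receptors are single-pass membrane proteins that are activated by ligands on a neighbouring cell. Binding of a ligand exposes the receptor to cleavage by ADAM proteases and then by γ-secretase, and the released intracellular domain joins the DNA-binding protein RBPJ to activate genes of the HES and HEY families. In growing vessels, *Dll4* in leading tip cells restrains sprouting in their neighbours through *Notch1*, *Jag1* opposes this signal, and Notch activity also favours arterial identity. *Nrarp*, itself a Notch target, feeds back to limit the signal.

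The RBPJ binding core TGGGAA links the effector to its targets, so promoters were searched for it. The window ran from 250 bases before to 50 bases after the start site of the canonical transcript (GENCODE M39, GRCm39), and both strands were read. The core was present in *Hes1*, *Hey2* and *Rbpj* and absent from *Notch1*, *Notch4*, *Dll4*, *Jag1*, *Jag2* and *Nrarp*. Of 21630 promoters of protein-coding genes, 25.9% held it. Only exact copies of the core were counted, and variant RBPJ sites were not searched. *Hes1* had 2 exact copies, which lay in the same orientation and began at positions -49 and -35 from the start site. *Hey2* had 1 copy on the opposite strand, at position -158. *Nrarp* had no RBPJ core in this window but 1 E-box (CACGTG, the palindrome recognised by many basic helix-loop-helix factors), at position -108, as did 7.86% of all promoters. The 250 bases before the start sites of *Hes1* and *Hey2* are shown 5′ to 3′ on the strand of each gene, because the number and orientation of the cores differed between them. Capitals mark the core or its reverse complement.

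*Hes1* (chr16:29883877-29884126, plus strand): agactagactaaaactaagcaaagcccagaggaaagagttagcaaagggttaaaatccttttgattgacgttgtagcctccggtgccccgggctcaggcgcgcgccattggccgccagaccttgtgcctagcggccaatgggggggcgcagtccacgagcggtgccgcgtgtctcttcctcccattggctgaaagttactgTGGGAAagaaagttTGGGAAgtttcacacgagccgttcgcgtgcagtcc
*Hey2* (chr10:30718829-30719078, minus strand): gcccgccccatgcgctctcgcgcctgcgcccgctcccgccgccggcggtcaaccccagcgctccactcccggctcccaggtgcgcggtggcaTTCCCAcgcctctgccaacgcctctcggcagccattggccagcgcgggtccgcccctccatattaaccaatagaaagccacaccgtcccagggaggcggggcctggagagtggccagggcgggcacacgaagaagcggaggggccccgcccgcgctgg

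TDP-43 is an RNA-binding protein that prefers UG-rich sequence, often in introns. Uninterrupted runs of at least 6 TG repeats on the coding strand, read from the genome between the annotated ends of each gene, were found in all 6 genes of receptors, ligands and effector and in none of the 4 targets. The targets are short genes, of 2582 to 10479 bases. Of the 2475 tested protein-coding genes no longer than 10479 bases, 23.4% held such a run, against 85.4% of the 8859 longer ones. This cut is the length of *Hey2*, the longest member without a run, so all longer members held a run by this choice. *Dll4*, of 10274 bases, was the only member below this length with a run. Over all lengths, 71.9% of tested protein-coding genes and 60% of the members held a run. *Rbpj* had the most, 21 runs over 191211 bases, *Notch1* had 5, *Notch4* had 3, *Dll4* and *Jag2* had 2 each and *Jag1* had 1. The longest run of each of these 6 genes lay in an intron. The median log2 fold change between the genotypes was -0.01 over the 8149 tested protein-coding genes with a run and 0.01 over the 3185 without. Of these intronic runs, the longest (*Jag1*), the shortest (*Dll4*) and that of *Notch1*, are shown with 10 flanking bases on each side, the run in capitals. A run of these letters is a description and no evidence of binding.

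*Jag1* (chr2:136955188-136955285, minus strand): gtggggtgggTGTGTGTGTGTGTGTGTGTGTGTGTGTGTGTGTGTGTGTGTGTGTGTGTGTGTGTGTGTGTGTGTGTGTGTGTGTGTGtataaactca
*Dll4* (chr2:119159439-119159476, plus strand): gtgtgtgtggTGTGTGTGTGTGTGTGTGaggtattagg
*Notch1* (chr2:26384488-26384553, minus strand): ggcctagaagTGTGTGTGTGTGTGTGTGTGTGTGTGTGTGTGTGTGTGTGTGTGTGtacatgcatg

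The libraries held 25704871 to 47270654 counts, and 3 counts corresponded to 0.0617 to 0.116 CPM (counts scaled to a common library size, here by the TMM method). The share of 18S ribosomal RNA did not overlap between the groups, at 14.8% to 18.5% in control mice and 8.04% to 13.6% in TDP-43iΔEC mice. With ribosomal RNA, hemoglobin and mitochondrial genes left out of the limma fit, 13 genes and 0 members were called. The log2 fold change of *Notch1* was then -0.50. The part of the 18S share in the results was not tested in any other way. Together the 10 members took 0.0725% to 0.0936% of all counts. *Tardbp*, which checks the labels, had 55.3, 61.9 and 58.5 CPM in control mice 1, 2 and 3 and 26.6, 16.1 and 11.8 CPM in TDP-43iΔEC mice 1, 2 and 3. The groups did not overlap, and the fitted log2 difference was -1.62 with a standard error (SE) of 0.41 (unadjusted p = 0.00332, adjusted p = 0.287 in limma). The counts of *Tardbp* cover the whole gene, and 33.1% of its exonic sequence is shared with *Masp2* on the opposite strand. The endothelial identity of the cells was checked with *Pecam1*, *Cldn5*, *Kdr*, *Flt1* and *Vwf*, which summed to 9696 to 13055 CPM in control mice and to 8851 to 10351 CPM in TDP-43iΔEC mice. The 10 mural cell markers summed to 726 to 1345 CPM and 568 to 1325 CPM in the 2 groups. The 6 astrocyte markers summed to 238 to 260.5 CPM in control mice and to 128 to 177 CPM in TDP-43iΔEC mice without overlap, most of it from the gap junction gene *Gja1*, which endothelium can also express (209 to 242 CPM in control mice and 103 to 170.4 CPM in TDP-43iΔEC mice). *Gfap* ranged from 0 to 23.3 CPM, both in TDP-43iΔEC mice, and *Aqp4* was at most 2.54 CPM in control mice and at 0 in all TDP-43iΔEC mice. The 6 oligodendrocyte markers ranged from 296 to 591 CPM and from 15.5 to 466 CPM, and the 5 red cell markers from 6935 to 10576 CPM and from 2034 to 2884 CPM, and 4 of these 5 were called lower in TDP-43iΔEC mice. Sums of the 5 fibroblast, 6 neuron and 6 microglia and macrophage markers were at most 44.2, 12.0 and 8.14 CPM in any library, and the neuron sums did not overlap between groups. *Adgre1* was at 0 in all 6 mice. The part of these cell populations in the results below was not tested. In RNA from sorted cell pools, a smaller share of cells that express a gene and less RNA per cell cannot be told apart.

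Per kilobase of exonic sequence, *Hes1* and *Dll4* were the most abundant members, with means over the 6 mice of 41.4 ± 9.81 and 40.6 ± 12.5 CPM per kb (SD, n = 6). On this scale these 2 genes could not be ordered, since *Hes1* was above *Dll4* in 3 of 6 mice. Both were above 93.9% of the tested genes. *Hey1* followed at 17.5 ± 3.96 CPM per kb and *Notch1* at 14.1 ± 3.38, with *Hey1* the higher in 5 of 6 mice. *Jag2* (10.6 ± 2.53), *Jag1* (10.3 ± 3.78) and *Notch4* (9.94 ± 3.68 CPM per kb) formed a group whose order changed from mouse to mouse, while *Notch1* was above *Jag2* in all 6. *Nrarp* (2.77 ± 2.77 CPM per kb), *Rbpj* (1.64 ± 0.567) and *Hey2* (0.498 ± 0.506) were the lowest. *Rbpj*, which encodes the factor that all Notch receptors act through, was at most 2.41 CPM per kb in any mouse. This value rests on 12849 exonic bases. On the 5440 bases of its canonical transcript, the mean of *Rbpj* was 3.87 CPM per kb. With the length of the canonical transcript in place of all exonic bases, the first 5 places were unchanged, and *Jag1* with *Notch4* and *Nrarp* with *Rbpj* changed places, but *Hes1* was then at 91.5 and *Dll4* at 41.8 CPM per kb.

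**Figure D1:**
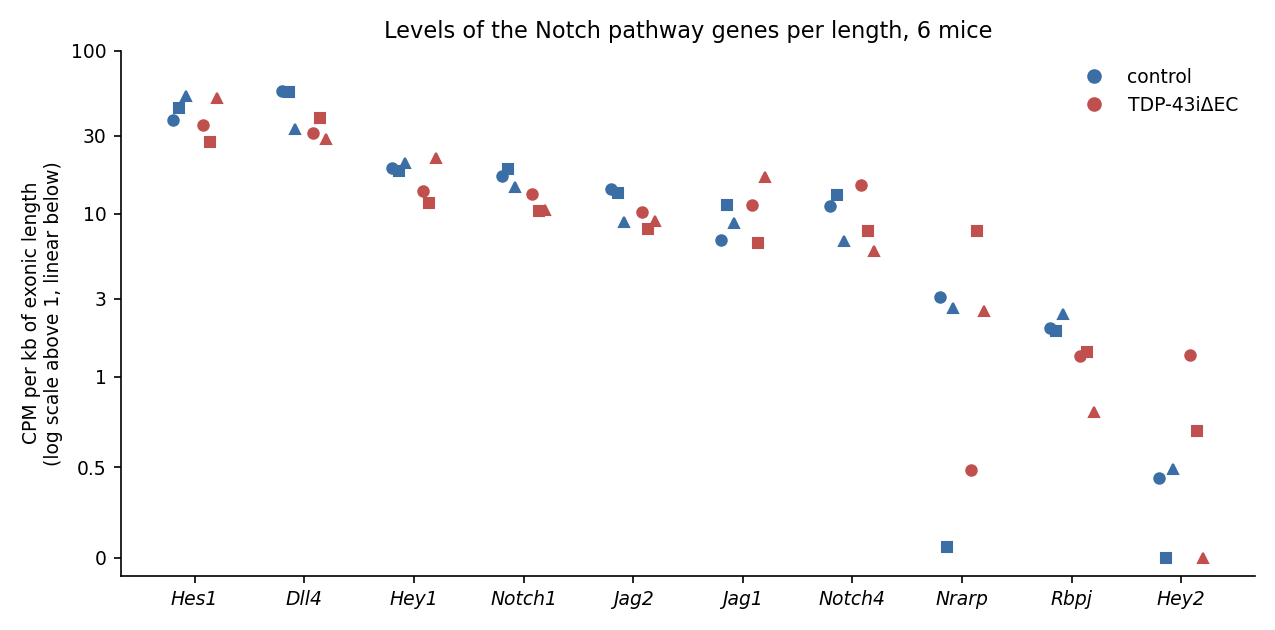
Level of each Notch pathway gene in CPM per kb of exonic length, ordered by the mean over 6 mice. Each symbol is 1 mouse (blue, control; red, TDP-43iΔEC; circle, square and triangle, mice 1, 2 and 3), and the axis is logarithmic above 1 and linear below it. *Hes1* and *Dll4* lie above the other members in all 6 mice, and *Nrarp* and *Hey2* spread most between mice.

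To ask whether loss of endothelial TDP-43 was accompanied by a difference in Notch pathway mRNA, TDP-43iΔEC mice were compared with control mice. None of the 10 members passed the threshold of an adjusted p under 0.05 in limma, where 0.137% of all tested genes did. At an unadjusted p under 0.05, 1 member was found, *Notch1*, lower in TDP-43iΔEC mice, beside 9.27% of all tested genes in either direction and 5% in that direction. edgeR's quasi-likelihood test called 0 members and 0% of all genes after adjustment, and DESeq2's Wald test called 0 members and 1.91% of all genes. Without adjustment, each of these tools had only *Notch1* under 0.05, beside 6.47% (edgeR) and 8.49% (DESeq2) of all genes. The groups did not overlap for 2 members, *Notch1* and *Rbpj*, both lower in TDP-43iΔEC mice, beside 15.3% of all tested genes in either direction and 7.93% in that direction. The log2 fold change was negative for 7 of the 10 members and for 50.7% of all tested genes, with a median of -0.33 over the members and -0.02 over all. Scaling by library size alone moved the median of all genes to 0.18, and scaling to the 5 EC markers, *Flt1* among them, moved it to 0.23. Under these scalings the median of the members was -0.13 and -0.08, and 6 of 10 members were lower, *Notch4* being the one that turned. The median of the members stayed 0.31 below that of all genes in both cases. A scaling shifts all genes by nearly the same amount, so this gap could hardly change and is no test of the difference. The difference between the medians, -0.31, depended on single mice, and was -0.51 without TDP-43iΔEC mouse 1 and -0.15 without TDP-43iΔEC mouse 2.

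*Notch1* (chromosome 2 from 26347915 to 26406675, minus strand) had 242, 266 and 209 CPM in control mice 1, 2 and 3 and 187, 148 and 150.2 CPM in TDP-43iΔEC mice 1, 2 and 3. Each TDP-43iΔEC mouse was below each control mouse, by a margin of 209 against 187 CPM between the nearest pair. The means were 239 ± 28.8 and 162 ± 22.1 CPM (SD, n = 3 mice each), which gave a log2 fold change of -0.54 (SE 0.20, 95% interval -0.98 to -0.09, unadjusted p = 0.0239, adjusted p = 0.471 in limma). The change was negative under all 16 alternatives, from -0.68 to -0.31. The unadjusted p was 0.118 with scaling by library size alone and 0.247 with scaling to the 5 EC markers, where the groups overlapped and *Rbpj* was the 1 member left without overlap. It was 0.0581 to 0.0720 when control mouse 1 or 2 or TDP-43iΔEC mouse 2 or 3 was left out. Of the genes on the opposite strand that share exonic sequence with *Notch1*, *0610009E02Rik* had 8 to 112 counts and *Gm13568* had 0, against 3896 to 11016 counts of *Notch1*.

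*Notch4* (chromosome 17 from 34783220 to 34807477, plus strand), a receptor gene expressed mostly in endothelium, had 99.1, 115 and 59.9 CPM in control mice and 133, 69.2 and 52.1 CPM in TDP-43iΔEC mice. The highest and the lowest value both belonged to TDP-43iΔEC mice. The log2 fold change was -0.05 (SE 0.40, 95% interval -0.95 to 0.85, adjusted p = 0.979 in limma), an interval that spans changes of nearly 1 log2 unit in either direction. Within each library, where scaling cancels, the log2 ratio of *Notch4* to *Notch1* counts was -1.29, -1.22 and -1.80 in control mice and -0.49, -1.10 and -1.53 in TDP-43iΔEC mice. The groups overlapped in this ratio, with means of -1.44 ± 0.32 and -1.04 ± 0.52 (SD, n = 3 each). The difference of 0.40 ranged from 0.12 without TDP-43iΔEC mouse 1 to 0.64 without TDP-43iΔEC mouse 3.

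**Figure D2:**
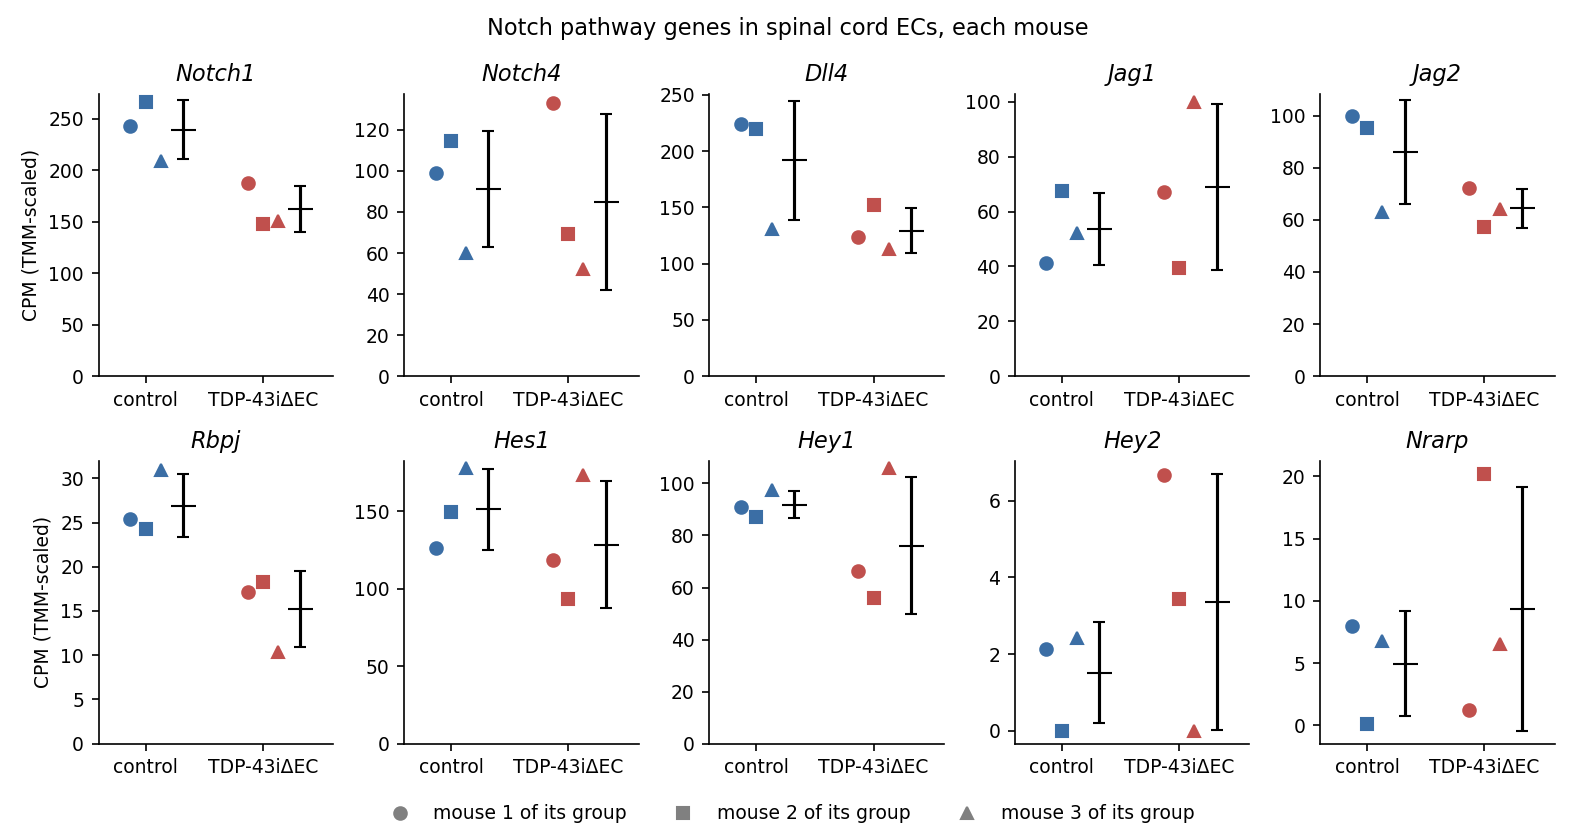
Scaled level (CPM, linear axes) of the 10 Notch pathway genes in each mouse, control in blue and TDP-43iΔEC in red, with mean ± SD in black (n = 3 mice each). The groups are separate for *Notch1* and *Rbpj* and overlap for the other 8 genes. *Hey2* has 1 mouse at 0 in each group.

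*Dll4* (chromosome 2 from 119156170 to 119166443, plus strand) had 224, 220.0 and 131 CPM in control mice and 123, 152 and 113 CPM in TDP-43iΔEC mice. Control mouse 3 lay within the TDP-43iΔEC range and the other 2 control mice above it. The means were 192 ± 52.6 and 129 ± 20.2 CPM (SD, n = 3 each), which gave a log2 fold change of -0.53 (SE 0.27, 95% interval -1.15 to 0.08, unadjusted p = 0.0813, adjusted p = 0.572 in limma). The value was negative under all 16 alternatives, from -0.80 without control mouse 3 to -0.30 with scaling to the 5 EC markers. *Gm14207* on the opposite strand shares 15.6% of the exonic sequence of *Dll4* and had 0 to 299 counts, against 2922 to 9618 for *Dll4*.

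*Jag1* (chromosome 2 from 136923373 to 136958693, minus strand) had 41.3, 67.6 and 52.2 CPM in control mice and 67.3, 39.4 and 100.0 CPM in TDP-43iΔEC mice. TDP-43iΔEC mouse 3 was the highest of the 6 and TDP-43iΔEC mouse 2 the lowest. The fitted log2 difference was 0.27 (SE 0.37, 95% interval -0.58 to 1.12, adjusted p = 0.831 in limma). It was 0.05 without TDP-43iΔEC mouse 3, 0.09 without control mouse 1 and 0.57 without TDP-43iΔEC mouse 2. *Jag2* (chromosome 12 from 112871421 to 112893437, minus strand) had 99.9, 95.1 and 63.0 CPM in control mice and 72.2, 57.3 and 64.0 CPM in TDP-43iΔEC mice, where control mouse 3 again fell within the range of the other group. Its log2 fold change was -0.37 (SE 0.29, 95% interval -1.02 to 0.28, adjusted p = 0.682), and it was -0.58 without control mouse 3 and -0.25 without control mouse 1. The log2 ratio of *Dll4* to *Jag1* counts was 2.44, 1.70 and 1.33 in control mice and 0.87, 1.94 and 0.17 in TDP-43iΔEC mice. *Dll4* therefore had the more counts of the pair in all 6 mice. The means of this ratio were 1.82 ± 0.57 and 1.00 ± 0.89 (SD, n = 3 each), and the groups overlapped because TDP-43iΔEC mouse 2 was above 2 control mice. The difference of -0.83 became -1.30 without TDP-43iΔEC mouse 2 and -0.41 without TDP-43iΔEC mouse 3.

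*Rbpj* (chromosome 5 from 53623494 to 53814704, plus strand) had 25.4, 24.3 and 30.9 CPM in control mice and 17.1, 18.3 and 10.3 CPM in TDP-43iΔEC mice. Each TDP-43iΔEC mouse was below each control mouse, and this held with every scaling tried. The means were 26.9 ± 3.54 and 15.2 ± 4.28 CPM (SD, n = 3 each). The log2 fold change of -0.78 was the largest among the 8 members with 10 or more counts in every mouse, but its SE was 0.45 (95% interval -1.79 to 0.23, unadjusted p = 0.113, adjusted p = 0.601 in limma). Under the 16 alternatives it ranged from -0.92 to -0.51. No exon of another annotated gene overlaps those of *Rbpj*.

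**Figure D3:**
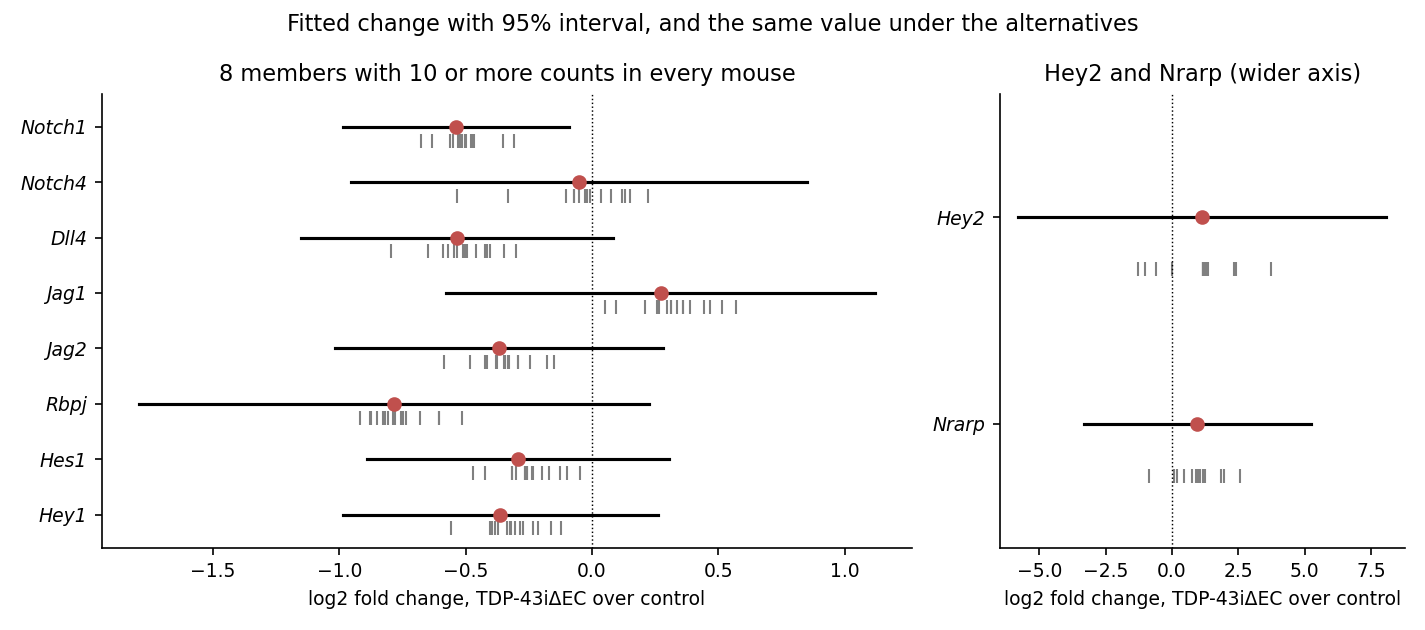
Log2 fold change of TDP-43iΔEC over control mice for each member (red point) with its 95% interval from limma (black line), and the value under each alternative (grey ticks, 15 for *Hey2* and *Nrarp* and 16 for the others). The interval of *Notch1* alone does not reach 0, and the panel of *Hey2* and *Nrarp* has a wider axis.

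Of the targets, *Hes1* and *Hey1* were well counted. *Hes1* (chromosome 16 from 29882134 to 29886643, plus strand), a basic helix-loop-helix repressor, had 126, 149 and 178 CPM in control mice and 119, 93.3 and 174 CPM in TDP-43iΔEC mice. *Hey1* (chromosome 3 from 8726956 to 8732385, minus strand), a related repressor of arterial endothelium, had 90.9, 87.2 and 97.5 CPM in control mice and 66.5, 56.1 and 105.8 CPM in TDP-43iΔEC mice. In both genes, TDP-43iΔEC mice 1 and 2 lay below all control mice, and TDP-43iΔEC mouse 3 lay within the control range for *Hes1* and above it for *Hey1*. The log2 fold changes were -0.29 (SE 0.26, 95% interval -0.89 to 0.30, adjusted p = 0.724 in limma) and -0.36 (SE 0.27, 95% interval -0.99 to 0.26, adjusted p = 0.677). They were -0.47 and -0.56 without TDP-43iΔEC mouse 3, -0.12 and -0.21 without TDP-43iΔEC mouse 2, and -0.05 and -0.12 with scaling to the 5 EC markers. *Hey1* varied little among control mice (91.9 ± 5.23 CPM) and more among TDP-43iΔEC mice (76.1 ± 26.2 CPM, SD, n = 3 each).

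*Hey2* and *Nrarp* varied widely between libraries of the same group. *Hey2* (chromosome 10 from 30708350 to 30718828, minus strand) had 92, 0 and 105 counts in control mice and 324, 107 and 0 counts in TDP-43iΔEC mice. A count of 0 allowed up to 0.0724 CPM in control mouse 2 and 0.116 CPM in TDP-43iΔEC mouse 3, while the other 4 mice had 2.14 to 6.66 CPM. *Nrarp* (chromosome 2 from 25070770 to 25073351, plus strand) had 341, 6 and 297 counts in control mice and 61, 629 and 170 counts in TDP-43iΔEC mice, or 0.145 to 20.2 CPM. The fitted log2 fold changes, 1.13 for *Hey2* (SE 3.06) and 0.95 for *Nrarp* (SE 1.88), had 95% intervals from -5.80 to 8.07 and from -3.33 to 5.22, and their adjusted p were 0.924 and 0.890 in limma. Without control mouse 2, the library with the fewest detected genes (12972), both turned negative, to -1.28 and -0.87, and *Hey2* was also negative (-0.59) without TDP-43iΔEC mouse 1. Opposite-strand genes cover 86.5% of the exonic sequence of *Nrarp*, and *Gm38287*, which covers most of it, had 0 to 111 counts, so the *Nrarp* counts are uncertain.

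The genes with the values most like those of 3 members over the 6 libraries, by the root mean square difference of log2 CPM centred on the mean of each gene, were found among all tested genes. *Slc6a6*, *Paqr7* and *Tsc22d3* were nearest to *Dll4* (0.0921 and 0.0929 log2 units for the first 2). *Id3*, *Srgap2* and *Crip2* were nearest to *Notch1* (0.0608 to 0.0762), and *Rpl31-ps8*, *Eif4a2* and *Cox4i1* to *Hey1* (0.0607 to 0.0775). With 6 libraries and 13107 genes, such a likeness is a description only.

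The wider pathway was described with 82 further genes, of which 70 were tested. None passed the adjusted threshold in limma. At an unadjusted p under 0.05, 2 were higher and 8 lower in TDP-43iΔEC mice, beside 9.27% of all tested genes in either direction and 5% lower. Of the 70, 44 had a negative log2 fold change, with a median of -0.29, beside 50.7% and a median of -0.02 for all tested genes. Groups did not overlap for 17 of the 70, beside 15.3% of all tested genes. The 18 coactivators and corepressors had a median of -0.24 and the 11 tested genes of receptor turnover a median of 0.06. For the 9 tested genes of ligand and receptor modification it was -0.72, and for the 3 tested other receptors and ligands -0.34. The 2 tested other HES and HEY factors, *Hes6* and *Heyl*, had a median of -3.60. The median of the 8 tested genes of receptor cleavage was -0.47.

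Of the genes that prepare ligands and receptors, *Mib1*, which encodes the ubiquitin ligase that lets ligands be internalised and so pull on the receptor, had the smallest p. It had 55.0, 104 and 63.9 CPM in control mice and 11.8, 16.4 and 32.6 CPM in TDP-43iΔEC mice, without overlap. Its log2 fold change was -2.10 (SE 0.50, unadjusted p = 0.00230, adjusted p = 0.270 in limma), and DESeq2 called it with an adjusted p of 0.0304. *Pofut1*, which encodes the enzyme that adds O-fucose to Notch receptors, had 23.9, 30.0 and 16.5 CPM in control mice and 0.514, 17.5 and 28.3 CPM in TDP-43iΔEC mice. Its log2 fold change of -2.75 (SE 1.22, unadjusted p = 0.0507) came with overlapping groups and a single low library, TDP-43iΔEC mouse 1. *Adam10* encodes the protease of the first receptor cleavage after ligand binding. It had 395, 513 and 426 CPM in control mice and 336, 289 and 283 CPM in TDP-43iΔEC mice. The log2 fold change of *Adam10* was -0.53 (SE 0.17, unadjusted p = 0.0124, adjusted p = 0.402 in limma). The corepressor gene *Ctbp2* had a log2 fold change of -1.22 (SE 0.47, adjusted p = 0.489), also without overlap.

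*Heyl*, a HES and HEY family gene known from mural cells, had 12.1, 13.5 and 13.2 CPM in control mice and 0, 6.71 and 0 CPM in TDP-43iΔEC mice. The groups did not overlap (unadjusted p = 0.0105, adjusted p = 0.388 in limma). *Notch3*, the receptor typical of mural cells, had 6.66, 6.04 and 13.5 CPM in control mice and 5.94, 13.8 and 3.20 CPM in TDP-43iΔEC mice, which overlapped, as did the summed mural markers given above. Of the other HES genes, *Hes6* was tested (log2 fold change -0.25, adjusted p = 0.907), and *Hes2* and *Hes3* were at 0 in every library.

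**Figure D4:**
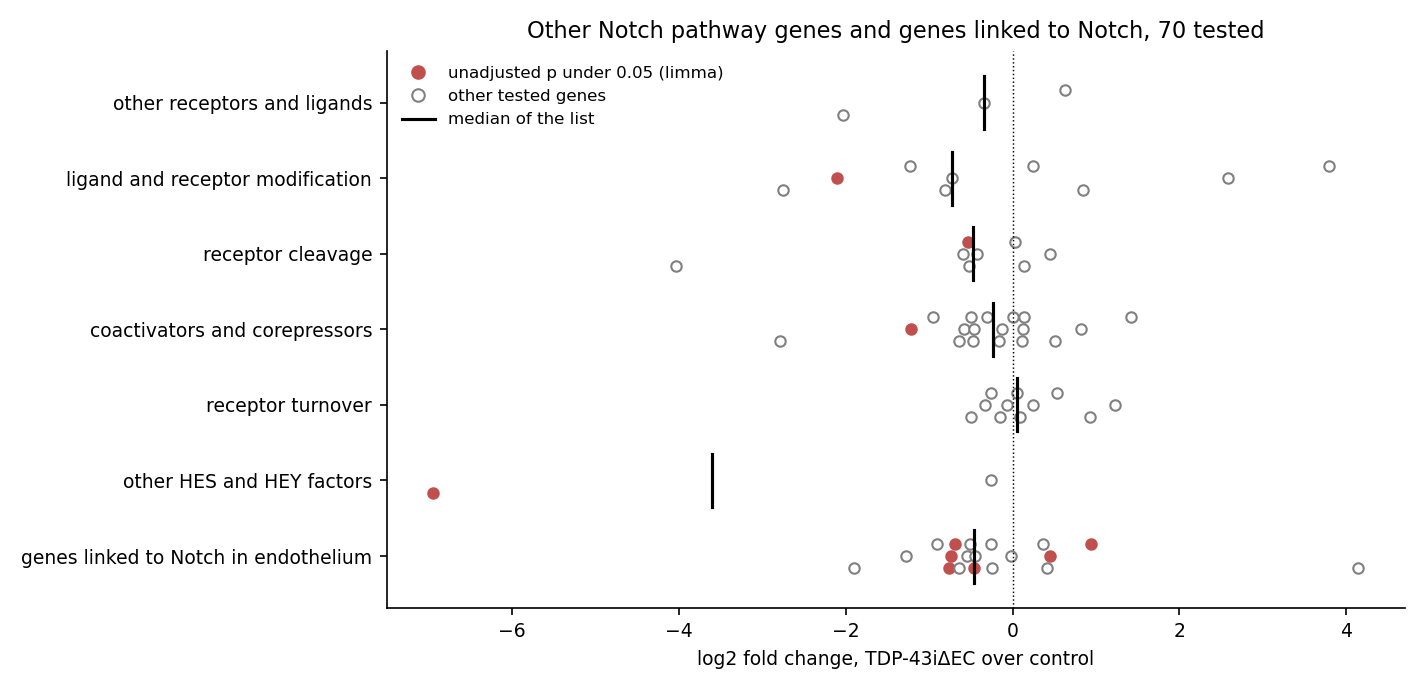
Log2 fold change of TDP-43iΔEC over control mice for the 70 tested genes of 7 lists from the wider pathway. Filled red points had an unadjusted p under 0.05 in limma (10 genes), open points did not, and black bars are list medians. The lowest point is *Heyl*, with 0 counts in 2 TDP-43iΔEC mice.

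Among 20 genes linked to Notch in endothelium, 19 were tested, and 14 of these had a negative log2 fold change, with a median of -0.46, beside 50.7% and -0.02 for all tested genes. The genes are a chosen list, and no shift of the group was tested. *Flt1*, the gene of the VEGF decoy receptor VEGFR1, had the smallest p (log2 fold change -0.69, SE 0.11, adjusted p = 0.0635 in limma). It was called by DESeq2 (adjusted p = 7.9e-06) and in limma without a filter on low counts (adjusted p = 0.0126). *Flt4*, which encodes VEGFR3, had 233, 217 and 153 CPM in control mice and 144, 131 and 78.5 CPM in TDP-43iΔEC mice, a log2 fold change of -0.73 (SE 0.28, adjusted p = 0.488). *Apln*, a peptide gene of tip cells, had 286, 180.5 and 233 CPM in control mice and 356, 517 and 503 CPM in TDP-43iΔEC mice. Its log2 fold change was 0.95 (SE 0.23, adjusted p = 0.271 in limma and 0.00398 in DESeq2). The 3 SOXF transcription factor genes did not share a sign. *Sox17* (log2 fold change -0.46, SE 0.20) and *Sox18* (-0.76, SE 0.33) were lower and *Sox7* (0.41, SE 0.19) higher in TDP-43iΔEC mice, with unadjusted p of 0.0481, 0.0447 and 0.0562 and adjusted p of at least 0.527 in limma. The cyclin D1 gene *Ccnd1* had 230, 198 and 203 CPM in control mice and 255, 337 and 278 CPM in TDP-43iΔEC mice (log2 fold change 0.44, SE 0.18, adjusted p = 0.513).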

How the data were processed

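RNA-Seq of ECs sorted from P16 spinal cords was analysed in 3 control and 3 TDP-43iΔEC mice, grouped by the labels. The authors used SMARTseq2, aligned to GRCm39 by STAR 2.7.8a and obtained gene values for GENCODE M30 from RSEM 1.3.0. The deposited table holds these estimated counts as whole numbers, neither scaled nor filtered (25704871 to 47270654 per library). Libraries without molecular identifiers count PCR copies as reads, and the limits given for a count of 0 cover counting error only. RSEM's default options do not use strand.

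The counts were tested with voom and empirical Bayes moderation in limma 3.58.1 (R 4.3.3), the package named in the study, after TMM scaling and filterByExpr (edgeR 4.0.16), with Benjamini-Hochberg adjustment over 13107 genes and a threshold of 0.05. CPM are TMM-scaled. With 3 mice per group, an exact permutation test of 1 gene cannot go below p = 0.1 and was not used. The procedures were run on counts simulated with spreads estimated by edgeR, a setting that can differ from these data. There, the share of calls that fell on unchanged genes was largest in DESeq2. Calls made by DESeq2 alone therefore deserve caution. Alternatives were edgeR's quasi-likelihood test, DESeq2 1.42.0, quality weights, 3 other scalings, 2 other filters, leaving out ribosomal RNA, hemoglobin and mitochondrial genes, the replicate number as a block, and leaving out each mouse. The canonical transcript length and the search for TG runs were added after the data were seen. Positions, lengths and promoters come from GENCODE M39 and the GRCm39 genome (98.7% of identifiers matched).

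Members, lists and tests were chosen with earlier results of these data known. Genes named are the members, *Tardbp*, the 12 genes of the wider pathway with the smallest p, and the nearest genes of *Dll4*, *Notch1* and *Hey1*. *Notch3*, *Hes2*, *Hes3* and *Hes6* were added after their values were seen. Protein sequences were not used here, and the promoter of 1 member is not reported here.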

Additional observations from a re-analysis of the deposited data

How the results depend on the processing

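None of the 10 members was called under any of the 16 alternatives, and their adjusted p ranged from 0.326 to 1.00 (limma, edgeR or DESeq2). *Hey2* and *Nrarp* could not be fitted with the filter of 10 counts in every library. The number of genes called among all those tested was 18, and it was 0 in edgeR, where 848 genes had an unadjusted p under 0.05. It was 250 in DESeq2, 10 with scaling by library size alone, 1 with scaling to the 5 EC markers, 76 without a filter, 39 with at least 10 counts in every library, and 0 (without TDP-43iΔEC mouse 1) to 13 (without control mouse 3) with each mouse left out. Calls among the 82 genes of the wider pathway rose from 0 to 3 in DESeq2 (*Flt1*, *Mib1* and *Apln*) and to 1 without a filter (*Flt1*). Members without overlap of the groups went from 2 to 1 with scaling by library size alone or to the EC markers, and ranged from 2 to 5 with each mouse left out (4 without control mouse 3, 5 without TDP-43iΔEC mouse 3), where 22.9% to 25.5% of all genes did not overlap in the smaller groups. The log2 fold change of *Notch4* turned positive with scaling by library size alone (0.13) or to the EC markers (0.15) and ranged from -0.54 to 0.22 with each mouse left out. That of *Hey2* turned negative with sample quality weights (-1.02) and ranged from -1.28 to 3.71 with each mouse left out, and that of *Nrarp* from -0.87 to 2.56. The other 7 members kept their sign under all 16 alternatives. The cause of these shifts was not tested. *Tardbp* passed the threshold in DESeq2 alone (adjusted p = 0.0216).

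With the replicate number as a block, 22 genes were called and 0 members, and 2 members had an unadjusted p under 0.05. The labels use the numbers only to name the mice within each genotype. Deviations from the group means of same-numbered mice had correlations of -0.06, -0.11 and -0.02 across genes. With 3 mice per group, these values cannot show whether same-numbered mice shared a litter or a batch. The 3 mice per group limit the precision, and its sources were not tested.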
